A study of Mus musculus with 6 samples.

Results

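The nuclear genes for the subunits of respiratory complexes II, III, IV and V were followed in mouse CD8+ T cells with and without DOPAC. They were taken by name from the table of all genes: Sdha to Sdhd, Cyc1, and every symbol that starts with Uqcr, with Cox followed by 4 to 8, or with Atp5. This gave 43 of the 11175 genes listed, 4 of complex II, 9 of complex III, 12 of complex IV and 18 of complex V. All 43 had a mean of at least 1 FPKM (sequenced fragments scaled by transcript length and library size), the filter that left 10887 genes for the tests. One entry each of complexes IV and V, Cox5b-ps and Atp5pb-ps, is named as a pseudogene, a copy of a gene that may not make protein. The annotation used here lists Atp5pb-ps as a processed pseudogene but Cox5b-ps as protein coding.

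All cells came from the spleens of wild-type (WT) mice and were labelled CD8+ T, the lymphocytes that kill infected and tumour cells. They were activated for 48 h through the antigen receptor (αCD3) and the costimulatory receptor CD28 (αCD28), without DOPAC in the Control group (3 libraries) and with DOPAC in the other (3 libraries). DOPAC, 3,4-dihydroxyphenylacetic acid, is a breakdown product of dopamine and a catechol, and its dose is not given in the sources used here. The strain and age of the mice, and whether the libraries of a group came from separate mice or cultures, are not given either, so a p-value measures only the spread between these libraries.

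Respiratory complexes sit in the inner mitochondrial membrane. Complex II oxidises succinate and is also an enzyme of the citric acid cycle. Complexes III and IV pass electrons by way of cytochrome c to oxygen and pump protons, and complex V, the ATP synthase, uses the proton gradient to make ATP. Complex II is encoded in the nucleus alone, while complexes III, IV and V each join nuclear subunits to subunits encoded by mitochondrial DNA. T cells expand their mitochondria when they are activated, and respiration supports their division and function.

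Among the 43 genes, no difference between DOPAC and Control passed limma's test after Benjamini-Hochberg adjustment over all genes tested (lowest adjusted p 0.801 among them, as among all genes). The percentage of all genes tested that passed was 0.00. At an unadjusted p under 0.05, 0 of the 43 passed, against 4.19% of all genes tested. The medians of the log2 differences, DOPAC minus Control on the log2(FPKM + 1) scale, were -0.0057 in complex II, -0.34 in complex III, -0.47 in complex IV and -0.42 in complex V, against 0.07 over all genes tested. All 3 libraries of one group lay beyond all 3 of the other for 2 of the 43 genes, against 17.2% of all genes tested. Without the first Control library (Control 1) the medians were -0.02, -0.06, -0.0092 and -0.02, against -0.01 over all genes. A negative difference was found for 35 of the 43 genes with all libraries, where 37.9% of all genes tested had one, and for 26 of the 43 without Control 1, where 52.7% had one. Without Control 1, 0.0184% of all genes tested passed the adjusted threshold and 14.5% an unadjusted p of 0.05, and 0 of the 43 passed either (lowest adjusted p 0.38).

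Control 1 stood apart over the whole table. Its log2(FPKM + 1) values correlated with those of the other 5 libraries at 0.899 to 0.917, and the other 5 among themselves at 0.974 to 0.992. The FPKM of a library summed to between 283818 and 316035, and the number of reads behind them is unknown. The 6 CD8 T cell markers looked for (Cd8a, Cd8b1, Cd3d, Cd3e, Cd3g, Cd28) were all present and summed to 553 to 585 FPKM in Control and 529 to 583 FPKM with DOPAC. Of the markers of other cells, those of CD4 T (Cd4, Foxp3) and NK cells (Ncr1, Klrb1c) were not analysed here, 1 of 4 B cell markers was measured (Cd79b, 1.54 to 2.49 FPKM in Control and 1.47 to 2.61 FPKM with DOPAC), and 2 of 5 myeloid markers (Lyz2 and Cd68, 14.2 to 33.8 FPKM in Control and 4.45 to 12.4 FPKM with DOPAC). Both stromal collagens (Col1a1, Col3a1) summed to 18.6 to 20.6 FPKM in Control and 0.256 to 11.4 FPKM with DOPAC, and 2 of 3 erythroid genes (Hbb-bs, Hba-a1) to 2.72 to 10.4 FPKM and 0.28 to 3.02 FPKM. The part of these other cells in the values below was not tested, and in such bulk samples fewer cells of a type and less RNA per cell cannot be told apart.

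The genes were very unequal in how far Control 1 departed from the rest. Control 1 was the highest of the 6 libraries for 36 of the 43 genes (83.7%), where it was the highest for 20.9% of all genes tested. It was more than 2-fold the mean of the other 5 libraries for 26 genes (60.5%), against 7.4% of all genes tested. By complex, it was the highest library for 2 of 4 genes of complex II, 7 of 9 of complex III, 12 of 12 of complex IV and 15 of 18 of complex V. The median ratio of Control 1 to the mean of the other 5 was 1.08, 2.78, 2.9 and 2.04 in that order. The 7 exceptions were Sdha, highest in Control 2, Sdhd and Atp5a1, highest in Control 3, and Uqcrfs1, Uqcrc2, Atp5b and Atp5pb, highest in DOPAC 1. With Control 1 left aside, the highest of the other 5 libraries was under 2-fold the lowest for 37 of the 43. Even so, the genes of complexes III, IV and V varied more among those 5 libraries, in the median, than all genes tested.

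**Figure D1:**
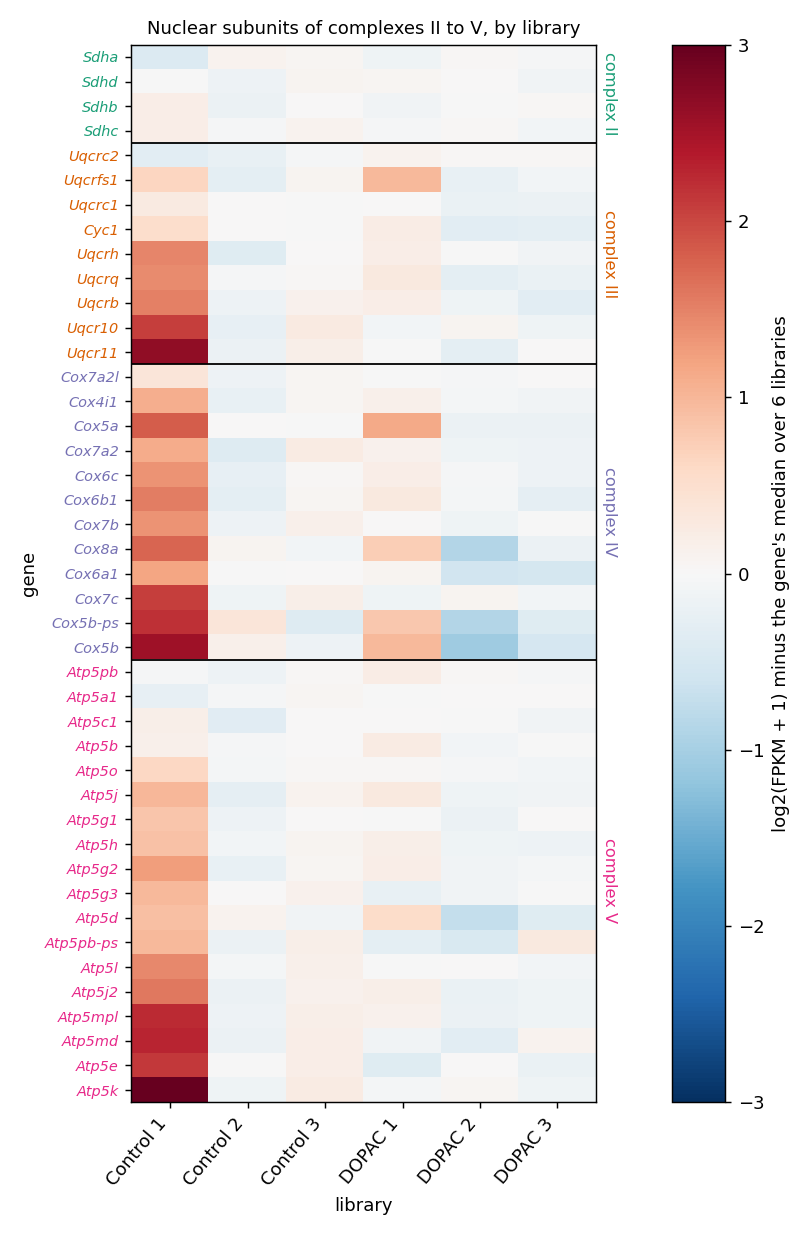
Each row is 1 gene and each column 1 library, and the colour is log2(FPKM + 1) minus the gene's median over the 6 libraries. The Control 1 column is red in complexes III, IV and V apart from a few of the longer genes, complex II is pale throughout, and DOPAC 1 is raised for Cox5a, Cox5b, Cox8a, Uqcrfs1 and Atp5d.

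Promoters of some genes that were higher in Control 1 are shown as examples, beside the promoter of one that was not. Atp5k had the highest ratio of Control 1 to the other libraries, Uqcr10 and Cox6a1 are small subunits of complexes III and IV that were also high there, and Sdha was lower in Control 1 than in any other library. Control 1 was 4.35-fold the mean of the other 5 for Uqcr10 and 2.59-fold for Cox6a1. The median ratio of the 43 genes was 2.34, so Cox6a1 lies near the middle. Some genes with higher ratios, such as Uqcr11 at 7.02-fold, are not shown. The windows run 5′ to 3′ from 250 bases before to 50 bases after the RefSeq start on GRCm38.p6, all on the minus strand. Capitals mark GCATGCGC, the core recognised by NRF1 (nuclear respiratory factor 1, known for binding promoters of respiratory genes), and its reverse complement GCGCATGC, which overlap in both genes that hold them. They lie at chr5:108434350-108434649 (Atp5k), chr5:115348909-115349208 (Cox6a1), chr11:4704295-4704594 (Uqcr10) and chr13:74350191-74350490 (Sdha).
Atp5k: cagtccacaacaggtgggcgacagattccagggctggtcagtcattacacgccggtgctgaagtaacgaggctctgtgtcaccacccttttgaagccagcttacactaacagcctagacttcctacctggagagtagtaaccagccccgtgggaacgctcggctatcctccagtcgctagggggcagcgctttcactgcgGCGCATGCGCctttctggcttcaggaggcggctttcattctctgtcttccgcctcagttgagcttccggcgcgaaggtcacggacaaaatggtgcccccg
Cox6a1: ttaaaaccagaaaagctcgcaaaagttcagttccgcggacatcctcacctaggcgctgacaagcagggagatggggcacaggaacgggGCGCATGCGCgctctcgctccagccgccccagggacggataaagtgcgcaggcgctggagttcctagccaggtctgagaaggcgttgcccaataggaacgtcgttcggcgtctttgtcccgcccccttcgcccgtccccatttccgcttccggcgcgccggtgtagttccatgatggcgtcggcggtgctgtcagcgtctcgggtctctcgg
Uqcr10: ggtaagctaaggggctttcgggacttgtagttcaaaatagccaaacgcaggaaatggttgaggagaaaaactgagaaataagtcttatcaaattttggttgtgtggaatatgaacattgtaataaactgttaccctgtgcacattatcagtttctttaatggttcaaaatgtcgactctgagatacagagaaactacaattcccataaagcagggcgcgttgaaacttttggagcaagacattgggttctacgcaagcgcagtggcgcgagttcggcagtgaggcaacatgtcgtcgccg
Sdha: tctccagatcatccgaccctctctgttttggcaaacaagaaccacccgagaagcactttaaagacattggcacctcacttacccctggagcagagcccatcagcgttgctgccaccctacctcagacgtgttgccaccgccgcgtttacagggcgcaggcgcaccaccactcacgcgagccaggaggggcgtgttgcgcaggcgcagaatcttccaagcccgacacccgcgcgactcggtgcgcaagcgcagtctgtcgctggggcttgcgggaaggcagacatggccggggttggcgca
Atp5k and Cox6a1 hold the palindrome once each, and the windows of Uqcr10 and Sdha do not hold these letters.

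RefSeq windows were matched for 32 of the 43 genes, 35 windows in all. On either strand, GCATGCGC was in 7 windows (20.0%), those of Atp5g2, Atp5k, Atp5l, Cox6a1, Sdhb, Uqcr11 and Uqcrc1, against 5.95% of the 9623 windows of genes tested. The 7 genes differed in their pattern across libraries: Control 1 was 14.9-fold the mean of the other 5 for Atp5k, 7.02-fold for Uqcr11 and 1.18-fold for Sdhb. CCGGAAGT, a site of ETS factors such as GABP, was in 4 windows (11.4%, against 9.76%), and AAGATGGC, a site of YY1, in 3 (8.57%, against 5.22%). ACGTG, the core of the hypoxia response element bound by HIF, was in 9 (25.7%, against 27.1%). These are letters in a window and not measured binding, and no share was tested.

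The genes of complex II had differences near 0 with and without Control 1. Sdha, the flavoprotein that oxidises succinate (chr13:74322254-74350280, GRCm38), was at 60.8, 87.6 and 84.5 FPKM in Control and 74.8, 83.9 and 79.1 FPKM with DOPAC. Sdhb, the iron-sulfur subunit that passes the electrons on, was at 53.8, 41.8 and 47.4 FPKM and at 44.1, 46.9 and 48.3 FPKM. Control 1 was the lowest of the 6 libraries for Sdha and the highest for Sdhb, and the groups overlapped for both genes. The 2 membrane anchors, which hold the haem and the ubiquinone site, varied as little. Sdhc was at 23.1, 19.4 and 21.7 FPKM in Control and 19.5, 20.5 and 18.8 FPKM with DOPAC. Sdhd was at 100.1, 90.9 and 107.3 FPKM in Control and 105.7, 102.7 and 93.9 FPKM with DOPAC. The groups overlapped for both anchors, and Control 1 was the highest library for Sdhc.

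On the log2(FPKM + 1) scale the difference was 0.05 for Sdha (95% interval -0.35 to 0.45), -0.03 for Sdhb (-0.35 to 0.29), -0.12 for Sdhc (-0.41 to 0.18) and 0.02 for Sdhd (-0.27 to 0.31). Adjusted p in limma was 0.939, 0.951, 0.809 and 0.967. Without Control 1 the differences were -0.12, 0.06, -0.06 and 0.03. For Sdha the 2 remaining Control libraries were then both above the 3 DOPAC libraries. In that comparison 21.5% of all genes tested had this downward order, and groups did not overlap in either direction for 36.8%. The median coefficient of variation over all 6 libraries was 8.3% for the complex II genes, against 57.3% in complex III, 59.8% in complex IV, 41.0% in complex V and 18.6% over all genes tested. Without Control 1 it was 6.0% in complex II, 14.5% in complex III, 17.5% in complex IV and 10.9% in complex V. The median over all genes tested was then above that of complex II and below those of complexes III, IV and V.

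In complex III the core and catalytic subunits had differences from -0.30 to 0.25, and the small accessory subunits from -0.99 to -0.34. Uqcrc2, core protein 2 (chr7:120635176-120659524), was at 72.0, 77.2 and 88.7 FPKM in Control and 96.7, 91.9 and 93.0 FPKM with DOPAC. It was the one gene of the 43 with all 3 DOPAC libraries above all 3 Control libraries, an order found upward for 12.4% of all genes tested. Its mean was 79.3 ± 8.54 FPKM in Control and 93.9 ± 2.53 FPKM with DOPAC (SD, n = 3). The log2 difference was 0.25 (95% interval -0.05 to 0.54), with an adjusted p in limma of 0.801. It was 0.18 without Control 1 (-0.02 to 0.38), and ranged from 0.16 to 0.33 over the 20 alternative analyses. Its sign could not change when libraries were left out, because all 3 DOPAC libraries lay above all 3 Control libraries. The exons of Uqcrc2 overlap those of Pdzd9 on the other strand by 504 bases, and the libraries do not mark strand, so reads there cannot be assigned.

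Uqcrc1, core protein 1, showed the opposite order of means. It was at 56.0, 46.6 and 45.9 FPKM in Control and 46.4, 40.2 and 40.8 FPKM with DOPAC, and DOPAC 1 lay just above the lowest Control library. The difference was -0.21 (95% interval -0.54 to 0.11). The ratio of Uqcrc1 to Uqcrc2, whose products form the core together, was 0.778, 0.603 and 0.518 in Control and 0.48, 0.438 and 0.438 with DOPAC. All 3 Control ratios were above all 3 DOPAC ratios, also among the libraries other than Control 1. An exact two-sided permutation test gave p = 0.1, the smallest possible with 3 against 3, and 0.38 after Benjamini-Hochberg adjustment over the 19 ratios compared.

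The catalytic subunits Cyc1 and Uqcrfs1 varied more among the libraries of a group. Cyc1 encodes cytochrome c1 and was at 60.8, 41.9 and 41.9 FPKM in Control and 49.2, 33.6 and 34.1 FPKM with DOPAC. Uqcrfs1 encodes the Rieske iron-sulfur protein and was at 74.6, 38.8 and 50.7 FPKM in Control and 94.8, 40.8 and 45.0 FPKM with DOPAC. In both groups the library numbered 1 was the highest of its group for both genes. The differences were -0.30 for Cyc1 (95% interval -0.82 to 0.22) and 0.08 for Uqcrfs1 (-0.81 to 0.97).

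All 5 small accessory subunits of complex III had negative differences, with a median of -0.59. Uqcr11, the smallest of them (chr10:80402997-80406830), was at 88.5, 11.6 and 14.8 FPKM in Control and 13.0, 10.5 and 13.2 FPKM with DOPAC. Uqcr10, another small subunit, was at 161, 31.3 and 45.0 FPKM in Control and 35.5, 39.4 and 34.1 FPKM with DOPAC. Control 1 was far above all other libraries for both, and the other Control libraries lay among or next to the DOPAC libraries. The difference was -0.99 for Uqcr11 (95% interval -2.66 to 0.68) and -0.74 for Uqcr10 (-2.07 to 0.58), and -0.10 and -0.05 without Control 1. Uqcrb, Uqcrq and Uqcrh, the hinge protein, were at 77.2, 62.2 and 89.0 FPKM in Control 1 and at 18.4 to 37.0 FPKM in the other libraries. Without Control 1 the median of the 5 was -0.06, with 4 negative and Uqcrh at 0.20.

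Complex IV had the most negative median, and every one of its 12 genes had a negative difference and its highest value in Control 1. None of these nuclear subunits is catalytic: the subunits that hold the electron-carrying metal centres are mitochondrially encoded. Cox6a1, the widely expressed form of subunit 6A (chr5:115345642-115348981), was at 193, 84.3 and 85.0 FPKM in Control and 89.2, 56.2 and 58.6 FPKM with DOPAC. Control 1 was the highest library, and DOPAC 1 lay above Control 2 and Control 3. Its mean was 120.9 ± 62.9 FPKM in Control and 68.0 ± 18.4 FPKM with DOPAC (SD, n = 3). The difference was -0.74 (95% interval -1.59 to 0.12), with an adjusted p in limma of 0.801, and -0.34 without Control 1 (-0.84 to 0.15).

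Cox5b, a zinc-binding subunit (chr1:36691449-36693681), was at 79.6, 14.5 and 11.6 FPKM in Control and 26.5, 5.60 and 8.85 FPKM with DOPAC. Within each group the library numbered 1 was the highest, and the 2 other DOPAC libraries were below the 2 other Control libraries. The difference was -1.04 (95% interval -2.98 to 0.89), and -0.20 without Control 1 (-1.61 to 1.21). Cox5b-ps (chr13:21501029-21501418), a single-exon entry that GENCODE lists as Gm11273, followed it at 19.9, 4.94 and 2.51 FPKM in Control and 7.11, 1.52 and 2.57 FPKM with DOPAC. Its value was 0.217 to 0.341 of that of Cox5b in every library. Reads of Cox5b and its copy may be split between both entries, so neither value is certain.

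Cox5a, the other matrix-facing subunit of this pair, was at 49.3, 13.5 and 13.2 FPKM in Control and 30.5, 11.6 and 11.6 FPKM with DOPAC. Cox8a, a small membrane-spanning subunit, was at 247, 77.1 and 69.6 FPKM in Control and 122, 39.4 and 64.9 FPKM with DOPAC. Both were again highest in the libraries numbered 1. The differences were -0.35 for Cox5a and -0.69 for Cox8a, and without Control 1 they were 0.26 and -0.11.

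The remaining complex IV genes were high in Control 1 alone. Cox4i1, the widely expressed form of subunit 4, to which the enzyme's regulation by ATP has been ascribed, was at 163, 64.8 and 80.2 FPKM in Control and 85.6, 72.7 and 71.4 FPKM with DOPAC. Cox6b1, which joins the monomers of the enzyme on the intermembrane side, was at 188, 51.9 and 66.7 FPKM in Control and 78.4, 60.8 and 53.0 FPKM with DOPAC. The differences were -0.31 and -0.45, and 0.08 and 0.10 without Control 1. Cox7a2 was at 77.7, 26.9 and 41.9 FPKM in Control and 38.9, 32.3 and 31.7 FPKM with DOPAC. The joining of complexes III and IV into supercomplexes has been ascribed to its relative Cox7a2l. That gene was at 62.8, 43.2 and 50.7 FPKM in Control and 47.7, 47.1 and 49.2 FPKM with DOPAC. Cox7a2l was the least affected gene of the 12, with Control 1 at 1.32-fold the mean of the other libraries, and the ratio of Cox7a2 to Cox7a2l was 1.24 in Control 1 and 0.622 to 0.826 elsewhere. Cox6c, Cox7b and Cox7c had differences of -0.38, -0.49 and -0.75, and of 0.11, -0.04 and -0.07 without Control 1.

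**Figure D2:**
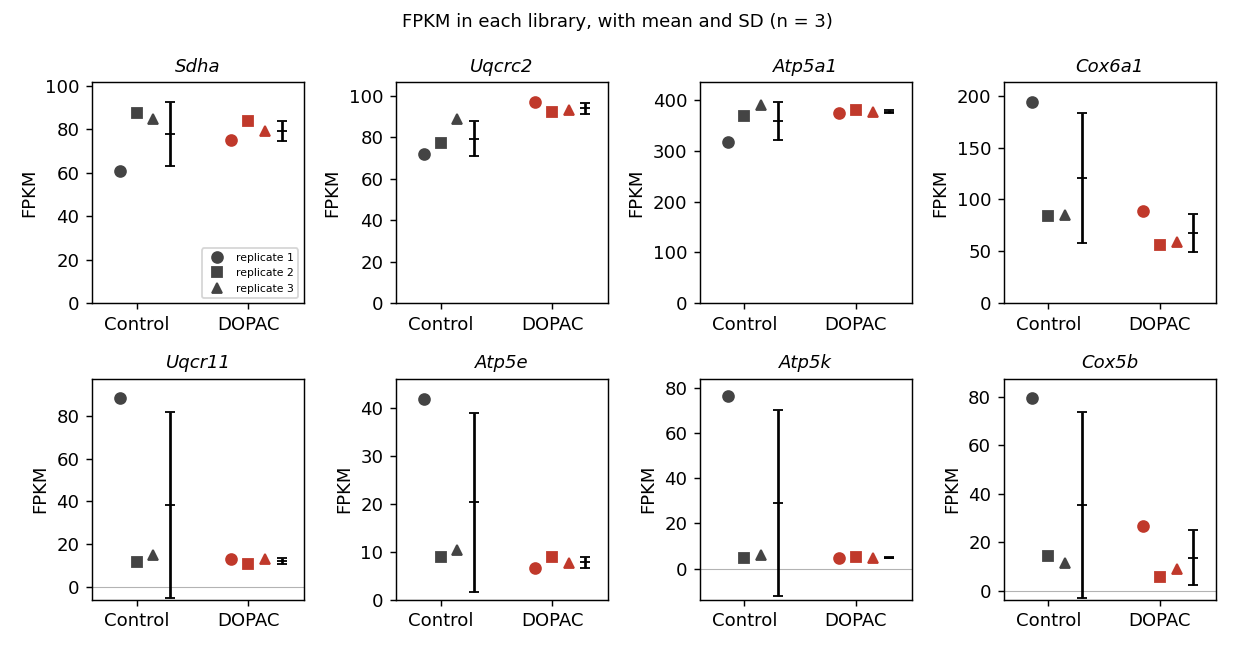
FPKM (vertical axis, from 0 where the SD bars allow) of 8 genes in each Control and DOPAC library, with the replicate number as the symbol and the mean and SD of each group (n = 3) beside the points. Uqcrc2 is higher in all 3 DOPAC libraries, Sdha and Atp5a1 overlap, and Uqcr11, Atp5e and Atp5k are high in Control 1 alone. Cox5b is high in both libraries numbered 1. Cox6a1 is far higher in Control 1 than elsewhere, and its DOPAC 1 value lies just above those of the other Control libraries.

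In complex V the catalytic F1 head had differences near 0. Atp5a1 (alpha) was at 317, 368 and 390 FPKM in Control and 374, 381 and 378 FPKM with DOPAC. Atp5b (beta, which carries the catalytic sites) was at 364, 322 and 331 FPKM in Control and 389, 313 and 326 FPKM with DOPAC. These were the most abundant of the 43 transcripts per length, and their groups overlapped. The differences were 0.08 for Atp5a1 (95% interval -0.21 to 0.37) and 0.01 for Atp5b (-0.30 to 0.32), and the ratio of alpha to beta was 0.87, 1.14 and 1.18 in Control and 0.961, 1.22 and 1.16 with DOPAC.

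The 3 subunits of the central stalk, which turns inside the head, went 3 ways. Atp5c1 (gamma) was at 117, 81.2 and 106 FPKM in Control and 105, 102 and 96.7 FPKM with DOPAC, a difference of 0.02 (95% interval -0.36 to 0.40). Atp5d (delta) was at 77.6, 44.3 and 37.5 FPKM in Control and 60.4, 24.4 and 31.3 FPKM with DOPAC, a difference of -0.48 (-1.42 to 0.45). Atp5e (epsilon) was at 41.9, 8.83 and 10.3 FPKM in Control and 6.66, 8.92 and 7.67 FPKM with DOPAC, a difference of -0.95 (-2.24 to 0.33). The DOPAC values of Atp5c1 lay within the range of its Control values, Atp5d was highest in the libraries numbered 1, and Atp5e was high in Control 1 alone. Without Control 1 the differences were 0.13, -0.18 and -0.28. The ratio of Atp5e to Atp5a1 was 0.132, 0.024 and 0.0265 in Control and 0.0178, 0.0234 and 0.0203 with DOPAC. No DOPAC ratio reached a Control ratio (exact two-sided permutation p = 0.1, adjusted 0.38).

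The c ring, which proton flow turns, is built from 1 protein made by 3 genes that differ in the targeting sequence cut off on import. Atp5g1 was at 16.9, 8.05 and 9.21 FPKM in Control and 9.08, 7.90 and 9.10 FPKM with DOPAC. Atp5g2 was at 106, 37.5 and 45.9 FPKM in Control and 50.2, 40.7 and 41.9 FPKM with DOPAC. Atp5g3 was at 123, 62.4 and 68.3 FPKM in Control and 53.5, 57.6 and 62.0 FPKM with DOPAC. All 3 were highest in Control 1, and Atp5g3 alone of the 43 genes had all its DOPAC libraries below all its Control libraries, an order found downward for 4.80% of all genes tested. The differences were -0.29, -0.36 and -0.48, with a 95% interval of -1.10 to 0.14 for Atp5g3, and 0.01, 0.09 and -0.18 without Control 1. The share of each gene in the ring's messages overlapped between the groups. Atp5g3 was 50.1%, 57.8% and 55.4% of the 3 genes' summed FPKM in Control and 47.4%, 54.3% and 54.8% with DOPAC. Atp5g2 made up 34.7% to 44.5% and Atp5g1 6.86% to 8.05% over the 6 libraries, and exact two-sided permutation p-values for the 3 shares were 0.3 (Atp5g1), 0.6 (Atp5g2) and 0.5 (Atp5g3), or 0.814 to 0.877 adjusted.

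The peripheral stalk holds the head still against the turning ring. Atp5pb (subunit b) was at 67.9, 61.7 and 70.5 FPKM in Control and 80.7, 70.6 and 67.1 FPKM with DOPAC, a difference of 0.12 (95% interval -0.18 to 0.43). It was the highest in DOPAC 1, and the groups overlapped. Its exons overlap those of Wdr77 on the other strand, where reads cannot be assigned. Atp5o, Atp5h and Atp5j had differences of -0.23, -0.32 and -0.26, and -0.01, -0.03 and 0.10 without Control 1. The copy Atp5pb-ps ranged from 2.63 to 8.85 FPKM over the libraries.

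The small accessory subunits of the membrane part (Atp5j2, Atp5k, Atp5l, Atp5md and Atp5mpl), which help pair the enzyme into dimers or steady it in the membrane, had the most negative median of any class, -0.82, and -0.08 without Control 1. Atp5k (subunit e, chr5:108433244-108434448) was at 76.3, 4.60 and 6.24 FPKM in Control and 4.91, 5.35 and 4.57 FPKM with DOPAC. Control 1 was 14.9-fold the mean of the other 5 libraries, the highest ratio of the 43 genes. The 5 others differed by less than 2-fold. The difference was -1.30 (95% interval -3.53 to 0.93) with all libraries and -0.10 (-0.42 to 0.22) without Control 1. Relative to Atp5a1 it was 0.241 in Control 1 and 0.0121 to 0.016 elsewhere. Atp5md and Atp5mpl were at 22.9 and 45.2 FPKM in Control 1 and at 2.91 to 4.63 and 7.55 to 9.99 FPKM in the others.

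**Figure D3:**
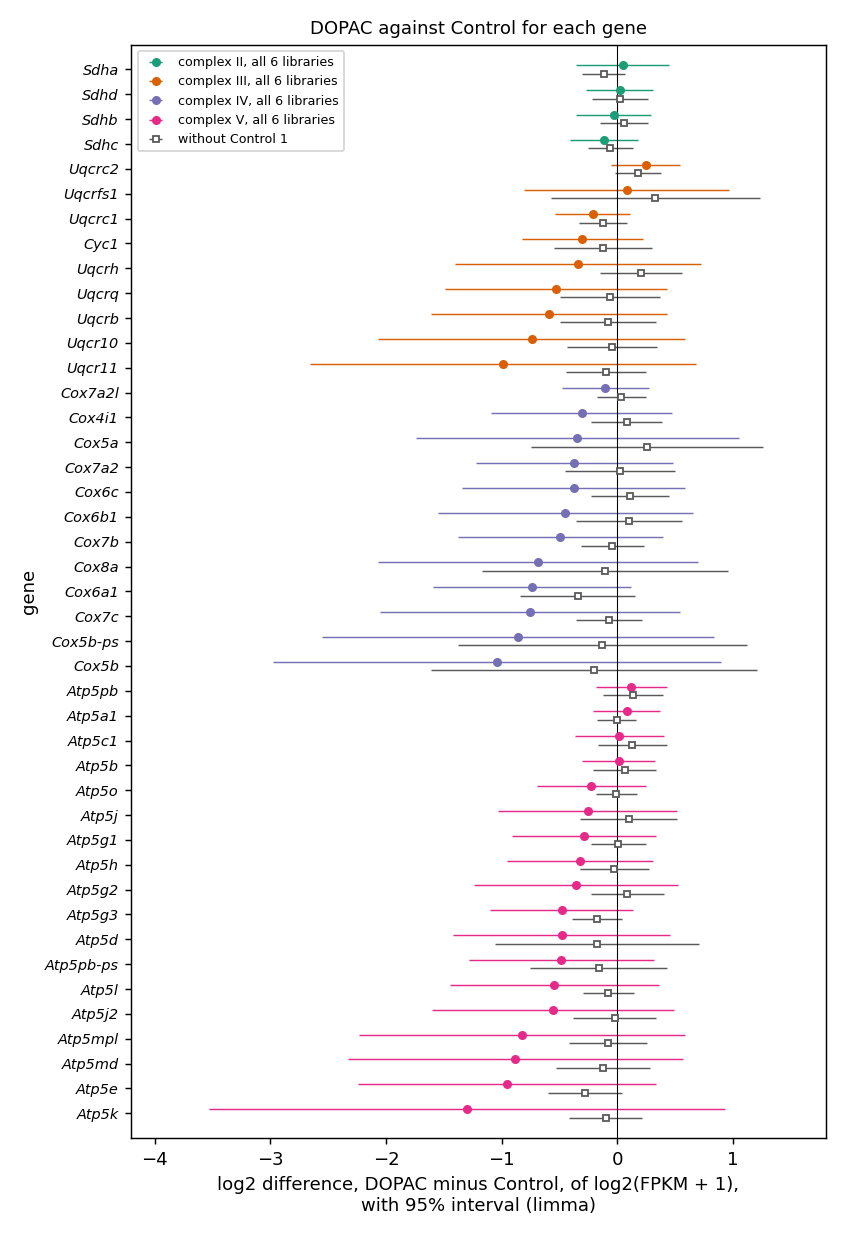
Horizontal axis: the difference DOPAC minus Control of log2(FPKM + 1) for each gene, with limma's 95% interval, for all 6 libraries (filled, coloured by complex) and without Control 1 (open squares). All intervals span 0, and most of the negative estimates in complexes III, IV and V are closer to 0 without Control 1, where Cox6a1 is at -0.34 and Atp5e at -0.28 and the intervals are narrower for most genes.

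The excess in Control 1 was greater for genes with a shorter coding part. The coding part of the principal transcript had a median of 676.5 bases in complex II, 333 in complex III, 295.5 in complex IV and 423 in complex V, against 1311 over all genes tested. For the 15 genes with up to 300 coding bases, Control 1 exceeded the mean of the other libraries by a median of 1.8 on the log2(FPKM + 1) scale (1.17 to 3.66). The 280 genes of the table in that class had a median of 0.576. For the 16 genes of 300 to 600 bases the median was 1.07, for the 6 of 600 to 1200 bases 0.398, and for the 5 longer ones -0.25, against 0.25, -0.11 and -0.50 over all genes of these classes. In each class the median of the complex II to V genes was above that of all genes. Over the 42 genes with a coding length, Pearson's r with log2 of that length was -0.82 and Spearman's rho -0.84, against -0.60 and -0.63 over 9531 genes tested. Summed exon length had been the measure planned. With it r was -0.55 and rho -0.55 over the 43 genes, against -0.52 and -0.61 over 10802 genes tested. These correlations are across genes, which are not independent replicates and share 1 library. For the excess of DOPAC 1 over the other libraries, Control 1 left aside, r with coding length was 0.02 over the 42 genes. Over the 9531 genes tested it was -0.31. Within the class of up to 300 bases the median difference between DOPAC and Control was -0.69 with all libraries and -0.06 without Control 1.

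**Figure D4:**
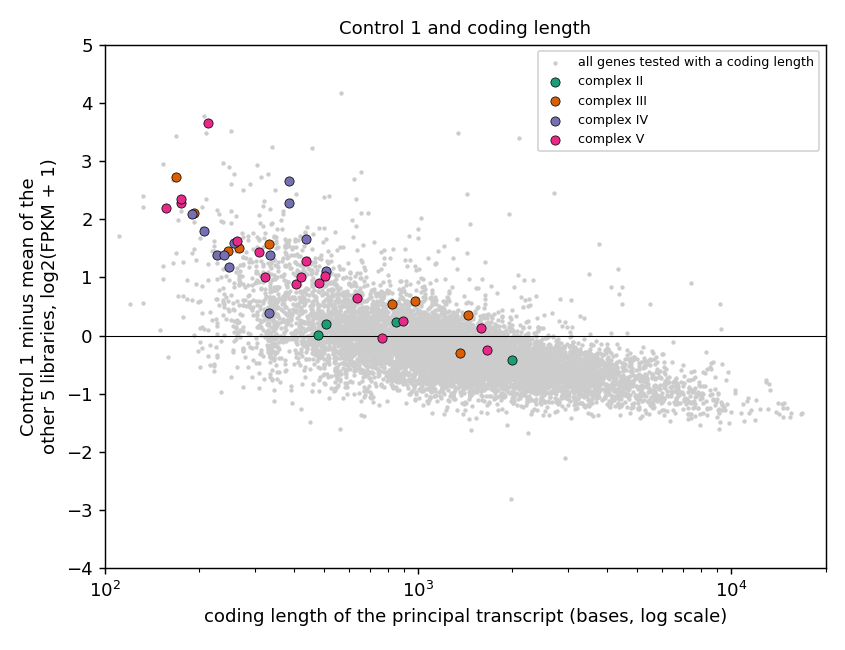
Each point is 1 gene, with the coding length of its principal transcript in bases (log axis) against Control 1 minus the mean of the other 5 libraries in log2(FPKM + 1), grey for all genes tested and coloured by complex. The shortest genes of complexes III, IV and V lie between 1.17 and 3.66 above the other libraries, and those over 1200 bases lie near or below 0.

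The complexes can be compared with each other by the mean log2(FPKM + 1) of their genes in each library. Complex II was at 5.74, 5.69 and 5.82 in Control and 5.71, 5.78 and 5.71 with DOPAC. Complex IV was at 6.41, 4.80 and 4.90 in Control and 5.25, 4.55 and 4.68 with DOPAC. Complex III was at 6.31, 5.01 and 5.25 in Control and 5.39, 5.02 and 5.04 with DOPAC. Complex II was lowest of the 4 in Control 1 and highest in the other 5 libraries, so Control 1 alone reverses the order. Complex V was at 5.92, 4.65 and 4.86 in Control and 4.82, 4.62 and 4.70 with DOPAC. The 39 complex I subunits, taken by name and with Ndufa4 among them, were looked at for comparison. Their median difference was -0.41, and 0.0016 without Control 1. As a share of all FPKM in a library, the 43 genes made up 1.26%, 0.755% and 0.813% in Control and 0.814%, 0.722% and 0.737% with DOPAC.

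**Figure D5:**
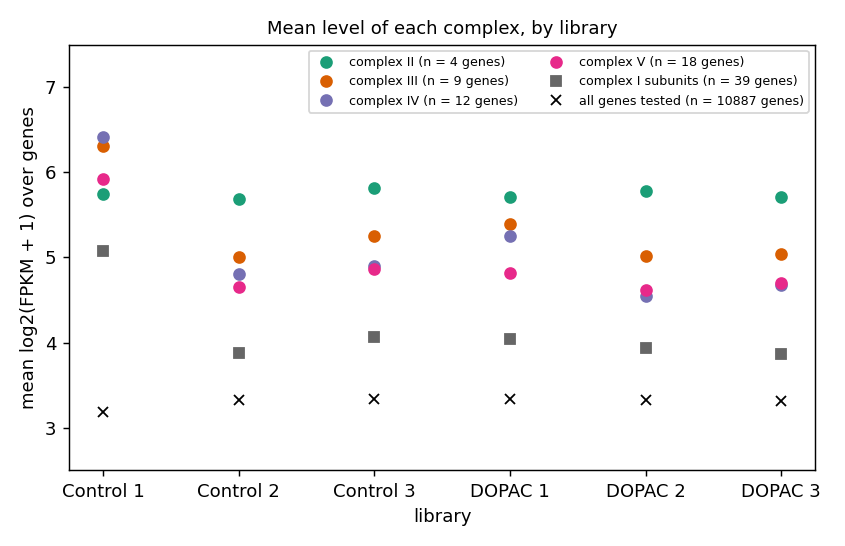
Mean log2(FPKM + 1) over the genes of each complex in each library, with complex I subunits and all genes tested for comparison; points are means over genes and carry no error. Control 1 is raised for complexes I, III, IV and V, while complex II lies between 5.69 and 5.82 in all 6 libraries.

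DOPAC 1 also stood out for a few genes, all in complexes III, IV and V. It was over 1.5-fold the mean of the other 4 libraries, Control 1 left aside, for Cox5b (2.62-fold), Cox5b-ps (2.47), Cox5a (2.44), Uqcrfs1 (2.16), Cox8a (1.95) and Atp5d (1.76). When both libraries numbered 1 were left out, a choice made after the data were seen, 7 of the 43 genes had an unadjusted p under 0.05 in limma, all lower with DOPAC, against 16.4% of all genes tested at that level and 10.6% that were lower. They were Cox6a1 (difference -0.55), Cyc1 (-0.30), Cox5b (-0.79), Atp5d (-0.54), Uqcrc1 (-0.19), Uqcrq (-0.24) and Cox5a (-0.18). The lowest adjusted p among them was 0.137, that of Cox6a1, so none was called, against 0.0184% of all genes tested. Over all 43 genes the median was then -0.07, against -0.02 over all genes tested, with 35 negative, where 54.6% of all genes tested were.

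With the replicate number as a block in limma, 5 of the 43 had an unadjusted p under 0.05, all lower, against 4.46% of all genes tested at that level and 1.91% that were lower. They were Cox6a1, Cox5b, Cox8a, Atp5d and Cox5b-ps, each with an adjusted p of 0.698. All but Cox6a1 are among the genes raised in DOPAC 1, and Cox6a1 too was at 89.2 FPKM in DOPAC 1 and at 56.2 and 58.6 FPKM in the other DOPAC libraries.

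The mitochondrially encoded partners did not share the negative sign found for 35 of the 43 nuclear genes with all libraries. Without Control 1 the sign was negative for 26 of the 43, and their median was -0.04. All 6 mitochondrial subunits of complexes III, IV and V had positive differences (median 0.25, and 0.27 without Control 1), where 6761 of the 10887 genes tested were positive. Of the 6, 2 passed an unadjusted p of 0.05, both in complex V, against 4.19% of all genes tested. mt-Atp6, the subunit that forms the proton path beside the c ring, was at 2137, 2393 and 2366 FPKM in Control and 3104, 2727 and 2691 FPKM with DOPAC, a difference of 0.30 (95% interval 0.03 to 0.58). mt-Atp8 was at 2586, 3290 and 3381 FPKM in Control and 4421, 3982 and 3842 FPKM with DOPAC, a difference of 0.41 (0.08 to 0.75). All DOPAC libraries were above all Control libraries for both, as also for mt-Cytb and mt-Co1, an order found upward for 12.4% of all genes tested. The adjusted p was 0.801 for each of the 6 except mt-Co2 (0.859) and mt-Co3 (0.836). The ratio of nuclear Atp5a1 to mt-Atp6 was 0.148, 0.154 and 0.165 in Control and 0.12, 0.14 and 0.14 with DOPAC, with no overlap (exact two-sided permutation p = 0.1, adjusted 0.38). For complex III the ratio of Uqcrc2 to mt-Cytb was 0.0293, 0.0309 and 0.0354 and then 0.0302, 0.0336 and 0.0356, and these overlapped. Cox4i1 relative to mt-Co1 was 0.0261 in Control 1 and 0.00707 to 0.00939 in all other libraries.

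With all libraries, the assembly factors of each complex had medians nearer 0 than that of the 43 genes (-0.37). These were -0.03 for complex II (3 genes), -0.03 for complex III (5 genes), -0.04 for complex IV (22 genes) and 0.10 for complex V (3 genes). Without Control 1 the medians of the assembly factors were 0.05, 0.02, 0.04 and -0.02 in that order, against -0.04 for the 43 genes. Of the assembly factors, Cox18, which inserts a mitochondrial subunit of complex IV into the membrane, passed an unadjusted p of 0.05 upward (difference 0.34, 95% interval 0.03 to 0.66). Sco2, a copper chaperone of complex IV, passed it downward (-0.48, -0.92 to -0.03), and both had an adjusted p of 0.801. Cox18 was at 3.71, 3.63 and 3.90 FPKM in Control and 5.75, 4.54 and 4.84 FPKM with DOPAC. Sco2 was at 5.94, 3.74 and 3.61 FPKM in Control and 3.04, 2.64 and 2.81 FPKM with DOPAC. Neither gene's groups overlapped, an order found for 17.2% of all genes tested with all libraries and 36.8% without Control 1, and 4.19% of all genes tested passed the unadjusted p. Uqcc2, an assembly factor of complex III with a short coding part, was at 47.6 FPKM in Control 1 and 6.24 to 9.58 FPKM elsewhere.

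Of 8 regulators of mitochondrial gene expression measured, 4 had positive and 4 negative differences, with a median of -0.02, and none passed an unadjusted p of 0.05. Their median was -0.115 without Control 1. Nrf1 itself was at 5.81, 6.81 and 7.67 FPKM in Control and 5.75, 6.93 and 6.95 FPKM with DOPAC. Tfam, which packages and transcribes mitochondrial DNA, was at 13.2, 17.5 and 17.5 FPKM in Control and 17.9, 18.5 and 18.9 FPKM with DOPAC. Tfam was thus lowest in Control 1. The DOPAC libraries were all above the Control libraries for Tfam and for Gabpa, an order found upward for 12.4% of all genes tested. Without Control 1 the groups did not overlap for 6 of the 8 regulators, against 36.8% of all genes tested. Ppargc1b and Pprc1, coactivators of the PGC-1 family, had differences of -0.26 and -0.04, and of -0.50 and -0.34 without Control 1, where both passed an unadjusted p of 0.05 (0.0274 and 0.021) with adjusted p of 0.313 and 0.304 in limma, against 14.5% of all genes tested at that level. Of other subunits, Ndufa4, now counted with complex IV, had a difference of -0.55 (-0.22 without Control 1). Its groups did not overlap, an order found downward for 4.80% of all genes tested. Cycs, cytochrome c, had a difference of 0.07. Atpif1, the inhibitor of the ATP synthase, had a difference of -0.45, and -0.05 without Control 1.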

How the data were processed

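RNA of 6 libraries was measured after TRIzol isolation, full-length cDNA synthesis (SMART-Seq HT) and Nextera XT paired-end library preparation, which do not mark strand, per the labels' protocols. Per the submitters' processing notes, cutadapt 1.9, HISAT2 2.2.1 and mm10 were used; how FPKM were estimated, from which annotation and with what filter on the 11175 genes is not given in the sources used here. Per the file headers, the authors deposited FPKM for each gene in each library. Their deposited log2 fold change matched group means of log2(FPKM + 1), subtracted, to within 1e-06 for all 11175 genes. The deposited p-value and adjusted p-value of the authors were read only for comparison: the lowest adjusted p of the 43 genes in the authors' deposited table was 0.801. FPKM carry no read counts, so the depth and its precision are unknown. One title spells the treatment of DOPAC 1 differently, but its other labels read DOPAC.

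Here log2(FPKM + 1) was tested in R 4.3.3 with limma 3.58.1 (mean-variance trend, DOPAC against Control, genes with a mean of at least 1 FPKM, 288 left out), with Benjamini-Hochberg adjustment over 10887 genes at 0.05 and 95% intervals. Ratios between genes were compared by exact two-sided permutation tests. Replicate numbers came from the labels. Deviations from the group means correlated at 0.34, 0.16 and 0.28 between libraries of the same number, each above the 0.1 set for treating numbers as pairs. Of libraries with different numbers, Control 2 with DOPAC 3 gave 0.24 and Control 3 with DOPAC 2 gave 0.19. The main test did not pair the libraries, and the replicate block was an alternative. GENCODE M21 (GRCm38) held all 43 genes and gave positions, overlaps, transcript and coding lengths, and RefSeq GRCm38.p6 gave promoters. Exons of 13 of the 43 genes overlap another gene and 4 have a GENCODE gene named as their pseudogene, so their reads are less certain. Copies that GENCODE lists under other names, as it does Cox5b-ps and Atp5pb-ps, were not counted among these. The 43 genes, the related lists and the ratios were chosen with earlier results of these data known. Values in every library were given for all complex II genes and, in each other complex, the 2 genes with the highest mean and the 2 with the most positive and most negative differences above a mean of 5 FPKM, plus the genes of families with several forms (Atp5g, Cox4i, Cox6a, Cox6b, Cox7a and Cox8). Uqcrc1, Cyc1, Cox5a, Atp5c1, Atp5d and the genes outside complexes II to V were added after their values were seen. Alternatives were other pseudocounts, filters, scalings, length trends, weights, a robust prior, the block and leaving out libraries.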

Additional observations from a re-analysis of the deposited data

How the results depend on the processing

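Among the alternative values for the 24 genes named by rule, 432 kept their direction and side of the threshold and 48 turned sign. The number of genes called over the table was 0, but 2 with array weights (whose estimation stopped before convergence), 2 without both libraries numbered 1, and 0 to 2 when 1 library was left out. The causes were not tested, and unknown depth limits all values.

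Genes of complexes II to V with an unadjusted p under 0.05 numbered 0, but 2 with the trend on summed exon length removed (10.6% of all genes), 2 with array weights (8.34%) and 2 with the trend on principal transcript length removed (13.3%, added after seeing the data), each time Uqcrc2 higher and Cox6a1 lower. They numbered 7 without both libraries numbered 1 (16.4%), and 0 to 3 when 1 library was left out (Cox7a2, Atp5g3 and Atp5e without Control 2, against 5.99% of all genes, and Atp5d without DOPAC 1, against 2.31%). With the replicate block they numbered 5 (4.46% of all genes), and 7, or 16.3%, with the replicate block and Control 1 left out, against 15.5% of all genes. The block changed no call after adjustment. The complex II median was -0.064 with medians made equal, and -0.0813 to 0.0221 when 1 library was left out. Leaving out Control 1 moved the median of the 43 genes from -0.37 to -0.04.

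Sign changes by setting were as follows. With medians made equal, Atp5b was at -0.0474, Sdha at -0.0121 and Sdhd at -0.0383. With values rescaled to an equal sum, Atp5b was at -0.018 and Sdhd at -0.0087. With quantile normalization, Sdhb was at 0.0037. With the trend on summed exon length removed, Atp5b was at -0.0714 and Sdha at -0.0329, and with that on principal transcript length removed, Atp5b was at -0.0228, Sdha at -0.045 and Sdhb at 0.0294. With array weights, Atp5b was at -0.00496, Atp5g2 at 0.0243, Cox4i1 at 0.0419, Cox6b1 at 0.0119, Cox7a2 at 0.0507, Cox7a2l at 0.0692, Sdha at -0.0744 and Sdhb at 0.11. With the replicate block and Control 1 left out, and also without both libraries numbered 1, Atp5b was at -0.0308, Cox7a2l at 0.0402, Sdha at -0.0776, Sdhb at 0.094, Sdhd at -0.0086 and Uqcrfs1 at -0.0492. When 1 library was left out, the differences ranged from -0.0052 to 0.14 for Atp5a1, -0.0839 to 0.0742 for Atp5b, -0.48 to 0.0094 for Atp5g1, -0.65 to 0.0859 for Atp5g2, -0.57 to 0.0815 for Cox4i1, -0.81 to 0.10 for Cox6b1, -0.72 to 0.0231 for Cox7a2, -0.23 to 0.0351 for Cox7a2l, -0.12 to 0.14 for Sdha, -0.12 to 0.058 for Sdhb, -0.0419 to 0.0762 for Sdhd and -0.29 to 0.33 for Uqcrfs1.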
